A study of Mus musculus with 12 samples.

Results

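The Hox genes of the 4 mouse clusters were followed through 6 groups of embryonic fibroblasts. They were taken as every probe set, the array's unit of measurement, that is annotated with a single gene symbol of the form Hoxa, Hoxb, Hoxc or Hoxd and a number. This gave 48 of the 45101 probe sets on the array. They belong to 33 of the 39 Hox genes in the mouse reference annotation, among 18194 genes on the array with a probe set of their own. Of the 33, 22 had 1 probe set and 11 had several. The other Hox genes are not analysed here. The Hoxa cluster lies on chromosome 6, Hoxb on 11, Hoxc on 15 and Hoxd on 2.

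Fibroblasts came from embryos of IRAK4 kinase-dead mice and of wild-type mice. IRAK4 is a kinase recruited through MyD88 once interleukin-1 has bound its receptor, and its kinase-dead form lacks enzymatic activity. Kinase-dead cells were kept without stimulation for 4 h (IRAK4 KD unstimulated) or given 1 ng/ml interleukin-1 beta (IL-1b), an inflammatory cytokine, for 1 h (IRAK4 KD IL-1b 1 h) or 4 h (IRAK4 KD IL-1b 4 h). Wild-type cells had the same 3 conditions (WT unstimulated, WT IL-1b 1 h and WT IL-1b 4 h). All cells grew in medium with serum. Each group held 2 arrays, 12 in all, and the unstimulated 4 h groups served as control at both times. The series calls them biological replicates. Its labels name neither separate animals or cultures nor the age and body region of the embryos, so p-values measure the spread between these samples. For the same reason genotype cannot be told apart from differences between the cell preparations. The Irak4 transcript was not analysed here.

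Hox genes encode homeodomain transcription factors that give cells their position along the head-to-tail axis and, for the Hoxa and Hoxd clusters, along the limb. Genes at one end of a cluster, with low paralog numbers, are switched on early and towards the head. Those at the other end, with high numbers, act towards the tail and in the distal limb. Adult and embryonic fibroblasts are known to keep part of the Hox pattern of the body site from which they came, under the control of Polycomb and trithorax chromatin proteins.

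Promoter windows from RefSeq (assembly GRCm38.p6, 250 bases before to 50 after the start) were held for 19 of the 33 genes, in 21 windows. The following 6 motifs were searched by exact letters on both strands: GGNNNTTCC for NF-kB, TGACTCA for AP-1, TATAAA for the TATA box, CCAAT for the CCAAT box, a homeodomain core of letters TAATTA, and AGGTCA as a nuclear receptor site. The NF-kB letters were in 1 of the 21 Hox windows and 18.5% of all 32851 windows, and the AP-1 letters in 1 Hox window and 5.2% of all. CCAAT was in 12 Hox windows and 37.4% of all, AGGTCA in 6 and 16.3%, TATAAA in 2 and 13.6%, and TAATTA, whose 2 strands read alike, in 2 and 5.3%. The median GC content was 58.0% in Hox windows and 52.7% in all. These matches are descriptions of the letters in the windows. The windows of Hoxa3, Hoxa5, Hoxa10 (2 windows), Hoxc4 and Hoxd8 are shown because these genes responded differently to IL-1b in the 2 genotypes. That of Hoxd13 is shown because of its genotype difference, and 1 of 2 Hoxd11 windows because it held the NF-kB and AP-1 letters. Each runs 5′ to 3′ along the gene's strand, with every motif match in capitals. They lie at chr6:52213018-52213317 (Hoxa3, minus strand), chr6:52204538-52204837 (Hoxa5, minus), chr6:52234890-52235189 and chr6:52240805-52241104 (Hoxa10 windows 1 and 2, minus), chr15:103034145-103034444 (Hoxc4, plus), chr2:74704365-74704664 (Hoxd8, plus), chr2:74667975-74668274 (Hoxd13, plus) and chr2:74679308-74679607 (Hoxd11, plus).
Hoxa3: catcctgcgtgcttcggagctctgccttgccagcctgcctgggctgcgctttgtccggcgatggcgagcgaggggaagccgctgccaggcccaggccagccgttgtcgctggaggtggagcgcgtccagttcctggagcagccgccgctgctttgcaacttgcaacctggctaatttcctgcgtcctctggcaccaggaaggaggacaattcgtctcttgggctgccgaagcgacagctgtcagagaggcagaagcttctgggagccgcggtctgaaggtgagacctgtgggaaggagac
Hoxa5: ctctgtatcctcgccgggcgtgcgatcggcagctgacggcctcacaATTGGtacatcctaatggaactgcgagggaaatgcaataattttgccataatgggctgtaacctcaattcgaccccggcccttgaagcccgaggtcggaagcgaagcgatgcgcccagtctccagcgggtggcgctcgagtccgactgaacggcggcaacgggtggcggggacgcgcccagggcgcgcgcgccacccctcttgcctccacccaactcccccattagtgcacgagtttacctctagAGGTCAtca
Hoxa10 window 1: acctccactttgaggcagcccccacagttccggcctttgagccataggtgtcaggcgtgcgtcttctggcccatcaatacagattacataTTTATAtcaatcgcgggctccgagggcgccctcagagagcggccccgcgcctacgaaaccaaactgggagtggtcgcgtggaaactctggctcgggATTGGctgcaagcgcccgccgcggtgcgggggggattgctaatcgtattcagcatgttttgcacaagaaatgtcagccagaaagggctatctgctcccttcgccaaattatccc
Hoxa10 window 2: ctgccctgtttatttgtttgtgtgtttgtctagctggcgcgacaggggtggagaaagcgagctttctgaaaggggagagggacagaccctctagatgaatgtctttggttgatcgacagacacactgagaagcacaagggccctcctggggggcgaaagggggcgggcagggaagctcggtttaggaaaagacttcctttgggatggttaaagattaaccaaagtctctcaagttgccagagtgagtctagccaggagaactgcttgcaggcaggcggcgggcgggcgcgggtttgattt
Hoxc4: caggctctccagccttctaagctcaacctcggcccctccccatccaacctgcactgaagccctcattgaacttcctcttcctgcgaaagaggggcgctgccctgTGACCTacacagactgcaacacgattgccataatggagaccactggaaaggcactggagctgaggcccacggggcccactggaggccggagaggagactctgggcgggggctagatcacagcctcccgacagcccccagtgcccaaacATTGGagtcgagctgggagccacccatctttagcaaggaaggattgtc
Hoxd8: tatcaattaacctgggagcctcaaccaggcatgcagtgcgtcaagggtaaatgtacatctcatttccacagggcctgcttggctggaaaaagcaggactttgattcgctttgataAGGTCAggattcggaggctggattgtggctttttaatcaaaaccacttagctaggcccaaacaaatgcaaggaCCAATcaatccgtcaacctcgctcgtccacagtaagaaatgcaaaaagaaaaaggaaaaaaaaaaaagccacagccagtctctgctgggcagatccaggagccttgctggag
Hoxd13: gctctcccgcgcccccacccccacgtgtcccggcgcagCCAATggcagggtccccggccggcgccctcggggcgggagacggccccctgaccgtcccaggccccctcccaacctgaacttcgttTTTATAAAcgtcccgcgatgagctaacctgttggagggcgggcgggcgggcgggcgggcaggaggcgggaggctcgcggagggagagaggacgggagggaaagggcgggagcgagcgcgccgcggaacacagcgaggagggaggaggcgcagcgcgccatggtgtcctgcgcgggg
Hoxd11: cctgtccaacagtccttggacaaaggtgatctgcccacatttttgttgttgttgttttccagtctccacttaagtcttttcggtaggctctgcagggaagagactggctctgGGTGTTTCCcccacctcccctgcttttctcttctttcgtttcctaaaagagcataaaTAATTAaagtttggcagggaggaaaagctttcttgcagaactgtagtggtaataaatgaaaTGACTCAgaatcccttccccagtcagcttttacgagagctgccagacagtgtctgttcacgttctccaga
The Hoxa3 window and window 2 of Hoxa10 held none of the 6 motifs, window 1 of Hoxa10 held TATAAA and CCAAT, and those of Hoxa5, Hoxc4 and Hoxd8 each held CCAAT and AGGTCA. The Hoxd11 window that is not shown held TAATTA and none of the other motifs.

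The arrays were alike in scale, with medians of 23 to 28.3 signal units and correlations of log2 signals of 0.967 to 0.974 within groups and 0.949 to 0.964 with other groups. RNA quality was read from actin, whose 3′ over 5′ ratio averaged 2.85 ± 0.0178 (SD, n = 2) for IRAK4 KD unstimulated, 2.42 ± 0.0894 for IRAK4 KD IL-1b 1 h and 2.49 ± 0.0899 for IRAK4 KD IL-1b 4 h. It averaged 2.41 ± 0.385 for WT unstimulated, 2.43 ± 0.0109 for WT IL-1b 1 h and 2.36 ± 0.303 for WT IL-1b 4 h, and its part in the results was not tested. All 28 fibroblast and mesenchyme probe sets passed the filter on low signals, with sums of 63048 to 68954 in kinase-dead and 62903 to 73955 in wild-type arrays. The 13 macrophage probe sets summed to 433 to 472 in kinase-dead and 193 to 241 in wild-type arrays, with 10 of 13 passing the filter and Itgam and Cd14 below it. The 24 neural and glial probe sets summed to 828 to 960 in kinase-dead and 562 to 733 in wild-type arrays, with 11 passing. Endothelial, epithelial, skeletal muscle and pluripotent lists summed to at most 353 signal units on any array. The part of these cells in the Hox differences between genotypes was not tested.

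Of the 48 Hox probe sets, 38 probe sets of 28 genes had 25.5 signal units or more (the median over the whole table) on 2 or more arrays and were tested with 27121 probe sets in all. The other 10 were those of Hoxb1, Hoxb7, Hoxb13 and Hoxd1 and 1 probe set each of Hoxa3, Hoxa4, Hoxa9, Hoxa10, Hoxa13 and Hoxd13. Of these, 6 reached the threshold on no array and 4 on a single one. Hoxa13, which with Hoxd13 patterns the digits, had no tested probe set, and its single probe set read 7.4 to 26.1 in kinase-dead and 1.3 to 24.7 in wild-type arrays. Among the 38, 30 reached the threshold on at least 2 arrays of each genotype, 5 only in kinase-dead cells (Hoxa3 1429398_at, Hoxa4, Hoxb2, Hoxb4 1451761_at and Hoxd12) and 3 only in wild-type cells (Hoxa11, Hoxd11 and Hoxd13). Those 8 entered through 1 genotype, so genotype counts are also given over the 30.

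The first question was how the Hox genes differ between kinase-dead and wild-type fibroblasts whatever the stimulation. The tested genes of paralogs 1 to 3 were higher in kinase-dead cells, and 7 of the 12 tested genes of paralogs 9 to 13 were lower. Over the 8 of those 12 seen in both genotypes, 4 were lower. Over the 3 conditions together, 22 of the 38 probe sets (16 genes) were higher and 9 (8 genes) were lower at an adjusted p under 0.05 by limma with Benjamini-Hochberg adjustment. Among all probe sets tested 13.3% were higher and 9.67% lower. Over the 30 probe sets seen in both genotypes the counts were 18 higher and 6 lower. The median difference on the log2(signal + 8) scale, used throughout for differences, was 0.67 over the 38 Hox probe sets and 0.03 over all. In bulk RNA, fewer cells expressing a gene and less RNA per cell cannot be told apart.

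By position in the clusters, all 8 tested probe sets of paralogs 1 to 3 were higher in kinase-dead cells. Of the 18 for paralogs 4 to 8, 12 were higher and 2, both of Hoxd8, lower. Of the 12 for paralogs 9 to 13, 2 (Hoxb9 and Hoxc9) were higher and 7 lower. These counts include probe sets that passed the filter only through the genotype in which they were higher. Over those seen in both genotypes, 6 of 6 were higher for paralogs 1 to 3, 10 of 16 were higher and 2 lower for paralogs 4 to 8, and 2 of 8 were higher and 4 lower for paralogs 9 to 13. With 1 probe set per gene, that with the highest mean, the Spearman correlation of the genotype difference with paralog number was -0.79 over 28 genes, and it was -0.8 without stimulation, -0.7 at 1 h and -0.78 at 4 h. Over the 22 genes whose probe set was seen in both genotypes it was -0.76 over all conditions. Those points share the same 12 arrays, so these are descriptions without a test. By cluster, Hoxb had 8 of 8 higher and Hoxa 7 of 11 higher and 2 lower. Hoxc had 6 of 11 higher and 1 lower, and Hoxd 1 of 8 higher and 6 lower. These cluster counts were not repeated over the probe sets seen in both genotypes. Those called higher include Hoxa3 1429398_at, Hoxa4, Hoxb2 and Hoxb4 1451761_at, which passed the filter only through kinase-dead cells. Those called lower include Hoxa11, Hoxd11 and Hoxd13, which passed only through wild-type cells.

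**Figure D1:**
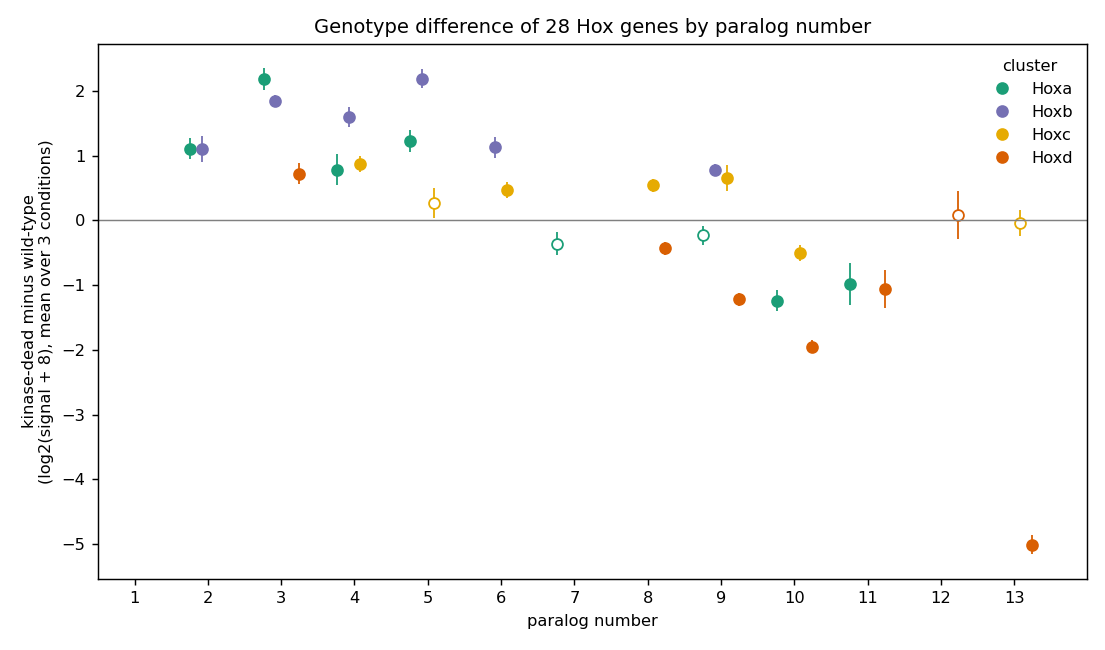
Difference between kinase-dead and wild-type cells over the 3 conditions on the log2(signal + 8) scale (y axis) against paralog number (x axis) for 28 Hox genes, 1 probe set each, coloured by cluster. Bars are standard errors and filled points have an adjusted p under 0.05. Genes numbered 2 to 6 lie above 0, and Hoxd13 lies lowest at -5.01.

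Among the head-end genes, Hoxb3 and Hoxa3, which act in the hindbrain and pharyngeal region, had the largest differences. Hoxb3 1456229_at read 1161.2 and 1108.8 in unstimulated kinase-dead cells, 959.4 and 957.1 at 1 h and 1162.3 and 1213.5 at 4 h of IL-1b. Wild-type arrays gave 383.1 and 334.6 without stimulation, 249.5 and 250 at 1 h and 256.2 and 330.5 at 4 h. Every kinase-dead array was above every wild-type one, and the difference over all conditions was 1.85 ± 0.08 (SE, 6 arrays per genotype; limma adjusted p = 1.11e-11). The other Hoxb3 probe set, 1427605_at, read 293.3 and 286.8, 226.7 and 211.8, and 187 and 218.9 in kinase-dead cells, against 47.1 and 56.8, 27 and 37.1, and 46.3 and 50.2 in wild-type cells. Pairs of values are given throughout in the order unstimulated, 1 h and 4 h. These arrays did not overlap either, with a difference of 2.25 ± 0.12.

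Hoxa3 1427433_s_at, whose suffix marks probes that may match several transcripts, read 838.2 and 675.1 in unstimulated kinase-dead cells, 760.7 and 685.7 at 1 h and 840.8 and 841 at 4 h. Wild-type cells read 244.5 and 232.1, 216.6 and 180, and 92.7 and 90 in the same order. The genotypes did not overlap in any condition, and the wild-type signals were lowest at 4 h. The difference was 1.63 ± 0.13 without stimulation, 1.83 ± 0.13 at 1 h and 3.10 ± 0.13 at 4 h (SE, n = 2 per group). Hoxa3 1452421_at read 357.5 and 254.2, 334.4 and 347.3, and 321.7 and 396.7 in kinase-dead cells, against 190.7 and 312.6, 129.9 and 134.7, and 114.2 and 85.6 in wild-type cells. Here the genotypes overlapped without stimulation (0.29 ± 0.21, adjusted p = 0.427 by limma). The dim Hoxa3 1429398_at differed by 1.00 ± 0.29 over all conditions.

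Hoxa2 and Hoxb2, known for segment identity in the hindbrain, were also higher in kinase-dead cells. Hoxa2 read 74.4 and 79.9, 59.5 and 79.3, and 75.5 and 88.7 in kinase-dead cells without stimulation, at 1 h and at 4 h. In wild-type cells it read 48.4 and 20.9, 28.4 and 29.7, and 33.6 and 28.9. The arrays did not overlap between genotypes and the difference was 1.11 ± 0.16. Hoxb2 ranged from 22.5 to 50.4 in kinase-dead and from 9.5 to 18.1 in wild-type arrays (1.10 ± 0.20). Hoxd3, a gene of the neck vertebrae, ranged from 42.6 to 77.7 in kinase-dead and from 22.7 to 30.9 in wild-type arrays (0.72 ± 0.16).

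In the middle of the clusters Hoxb5 stood out. Hoxb5 read 164.6 and 153.4 in unstimulated kinase-dead cells, 156.8 and 128.1 at 1 h and 125.8 and 121.3 at 4 h. Wild-type arrays read 29.7 and 19.2, 18 and 21.5, and 26.9 and 35.6. The lowest kinase-dead signal was above the highest wild-type one, and the difference over all conditions was 2.19 ± 0.15 (limma adjusted p = 3.79e-09). Hoxb4 1460379_at, a gene known for expanding blood stem cells when forced on, read 112.4 and 113.3, 161.6 and 140.3, and 75 and 129.6 in kinase-dead cells, against 31.1 and 43.7, 43.3 and 32, and 31.4 and 25.3 in wild-type cells. Its kinase-dead arrays were all above its wild-type arrays (1.60 ± 0.15). Its dim second probe set, 1451761_at, differed by 1.15 ± 0.34. Hoxb6, a gene of the lateral mesoderm, read 73.6 and 52.3, 45.4 and 60.4, and 67.4 and 69.6 in kinase-dead cells, against 34.3 and 37, 15.6 and 17.8, and 22.5 and 19 in wild-type cells. Its genotypes did not overlap (1.13 ± 0.16). Hoxa4 ranged from 19.8 to 39.3 in kinase-dead and from 5.6 to 21.4 in wild-type arrays, with overlap (0.78 ± 0.24).

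Hoxa5, needed for the lung and the skeleton at the neck to chest boundary, was higher on both probe sets. Hoxa5 1448926_at read 125.8 and 116.7 in unstimulated kinase-dead cells, 103.6 and 118 at 1 h and 81.2 and 100.9 at 4 h. Wild-type cells read 39 and 41.6, 52.7 and 38.1, and 6.8 and 4.4. No kinase-dead array fell to a wild-type level, and the difference was 1.42 ± 0.23 without stimulation, 1.16 ± 0.23 at 1 h and 2.86 ± 0.23 at 4 h. Hoxa5 1443803_x_at read 246.1 and 262, 231.9 and 214.3, and 273.6 and 260 in kinase-dead cells, against 134.7 and 136.7, 127.8 and 126.6, and 44.5 and 74.6 in wild-type cells. It too was higher on every kinase-dead array (1.23 ± 0.17 over all conditions).

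Of the Hoxc genes in the middle group, Hoxc4 and Hoxc8 were higher in kinase-dead cells. Hoxc4 read 1260.6 and 1355.8 in unstimulated kinase-dead cells, 1056.9 and 935.3 at 1 h and 1522.6 and 1473 at 4 h. Wild-type cells read 764.1 and 845.6, 769.2 and 672.6, and 474.4 and 624.7. All 6 kinase-dead arrays lay above the 6 wild-type ones (0.87 ± 0.12). Hoxc8, a gene of the chest segments, read 1104.5 and 972.3, 1036 and 974.1, and 1046.1 and 969.9 in kinase-dead cells against 941.6 and 720, 811.7 and 691.5, and 496.1 and 596.6 in wild-type cells. Here too the genotypes did not overlap over the 12 arrays (0.54 ± 0.10). Of 3 Hoxc5 probe sets, 2 were higher (0.78 ± 0.21 and 0.68 ± 0.21), and of 3 for Hoxc6, 1 was higher (1427454_at, 0.47 ± 0.13). Hoxc6 1427454_at read 104.5 and 111.9, 100.8 and 94.7, and 101.8 and 128.6 in kinase-dead cells, against 84 and 68.9, 99.7 and 70.8, and 65.7 and 64.8 in wild-type cells, with overlap at 1 h. Hoxa7 read 23.3 and 49.2, 31.3 and 46.8, and 58.5 and 69.2 in kinase-dead cells, against 49.1 and 48, 78 and 61.4, and 63.1 and 56.7 in wild-type cells. Its genotypes overlapped, and it did not pass (-0.36 ± 0.18, adjusted p = 0.165 by limma).

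At the tail end, Hoxd13, which patterns the digits and the urogenital region, had the largest difference of all 38 probe sets. Hoxd13 1440626_at read 35.4 and 17.7 in unstimulated kinase-dead cells, 23.4 and 15.8 at 1 h and 20.2 and 19.3 at 4 h. Wild-type cells read 1113 and 1215.6, 1103.4 and 1171.5, and 590.3 and 651.7. The highest kinase-dead signal lay far below the lowest wild-type one, and 1 of the 6 kinase-dead arrays reached the filter threshold. The difference was -5.01 ± 0.15 (limma adjusted p = 6.01e-14). This value understates the change, since the pseudocount of 8 weighs on the low kinase-dead signals. The second Hoxd13 probe set, 1422239_at, read at most 2.8 on every array and was not tested.

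Of its cluster neighbours, Hoxd10 and Hoxd9 were clearly lower too. Hoxd10 read 194.1 and 168.2, 130.8 and 143.6, and 176.3 and 161.8 in kinase-dead cells without stimulation, at 1 h and at 4 h, against 745.6 and 757.1, 628.9 and 716.4, and 523.1 and 544.4 in wild-type cells. Hoxd9 read 253.3 and 316.3, 360.3 and 274.9, and 249.7 and 286.2 against 821 and 802.1, 766.5 and 795, and 467.7 and 537.7. Neither gene, both of them limb genes, overlapped between genotypes on any array, and the differences were -1.95 ± 0.10 for Hoxd10 and -1.22 ± 0.10 for Hoxd9. Hoxd11, which shapes the forearm and the sacral region, read 11.2 and 16.4, 3.9 and 32.1, and 4.7 and 24.1 in kinase-dead cells, against 36 and 43.7, 38.9 and 41.1, and 19.3 and 43.9 in wild-type cells. It overlapped at 4 h and was lower over all conditions (-1.06 ± 0.30). Hoxd12 lay near the threshold, at 22 and 4.7, 28.4 and 32.8, and 4.6 and 18.3 in kinase-dead cells, against 6.6 and 28.2, 22.2 and 2.8, and 19.2 and 21 in wild-type cells. It overlapped and did not pass (0.08 ± 0.37, adjusted p = 0.915 by limma). Hoxd8 1431099_at read 216.1 and 192.6, 174.8 and 166.2, and 185.8 and 166.4 in kinase-dead cells, against 339.6 and 287.1, 291.1 and 290.3, and 194.7 and 187 in wild-type cells, and 1433638_s_at read 585.7 and 529, 761.4 and 689, and 674 and 661.9 in kinase-dead cells, against 1034.6 and 974.1, 978.8 and 906.6, and 710.9 and 699.4 in wild-type cells. Within each condition both kinase-dead arrays were below both wild-type arrays, though not over all 12, and the differences over all conditions were -0.48 ± 0.10 (1431099_at) and -0.43 ± 0.10 (1433638_s_at). By condition they were -0.60, -0.74 and -0.11 for 1431099_at and -0.84, -0.38 and -0.08 for 1433638_s_at, and those at 4 h were not called (limma adjusted p = 0.666 and 0.687).

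Hoxa10, whose paralogs suppress rib formation in the lower trunk, was lower as well. Hoxa10 1431475_a_at read 304.5 and 230.2 in unstimulated kinase-dead cells, 266.4 and 312.6 at 1 h and 330.6 and 293.9 at 4 h, against 720.4 and 857.1, 1052.8 and 925.8, and 423 and 421.4 in wild-type cells. The genotypes stayed apart on all arrays, with a difference of -1.54 ± 0.14 without stimulation, -1.75 ± 0.14 at 1 h and -0.43 ± 0.14 at 4 h (adjusted p = 0.0491 at 4 h by limma). Hoxa11, a kidney and forearm gene, ranged from 1.6 to 17.6 in kinase-dead and from 6.4 to 65.3 in wild-type arrays (-0.98 ± 0.33). Hoxc10 differed by -0.50 ± 0.12, and Hoxc13, a hair gene near the threshold, by -0.04 ± 0.20, which did not pass (adjusted p = 0.917 by limma). Hoxb9 was higher in kinase-dead cells instead. It read 463.8 and 383.3, 347.2 and 307.5, and 406.7 and 425.4 in kinase-dead cells, against 276.3 and 305.8, 173.1 and 191.1, and 201.8 and 208 in wild-type cells and did not overlap (0.78 ± 0.09). Hoxc9 differed by 0.66 ± 0.20 with overlapping arrays.

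**Figure D2:**
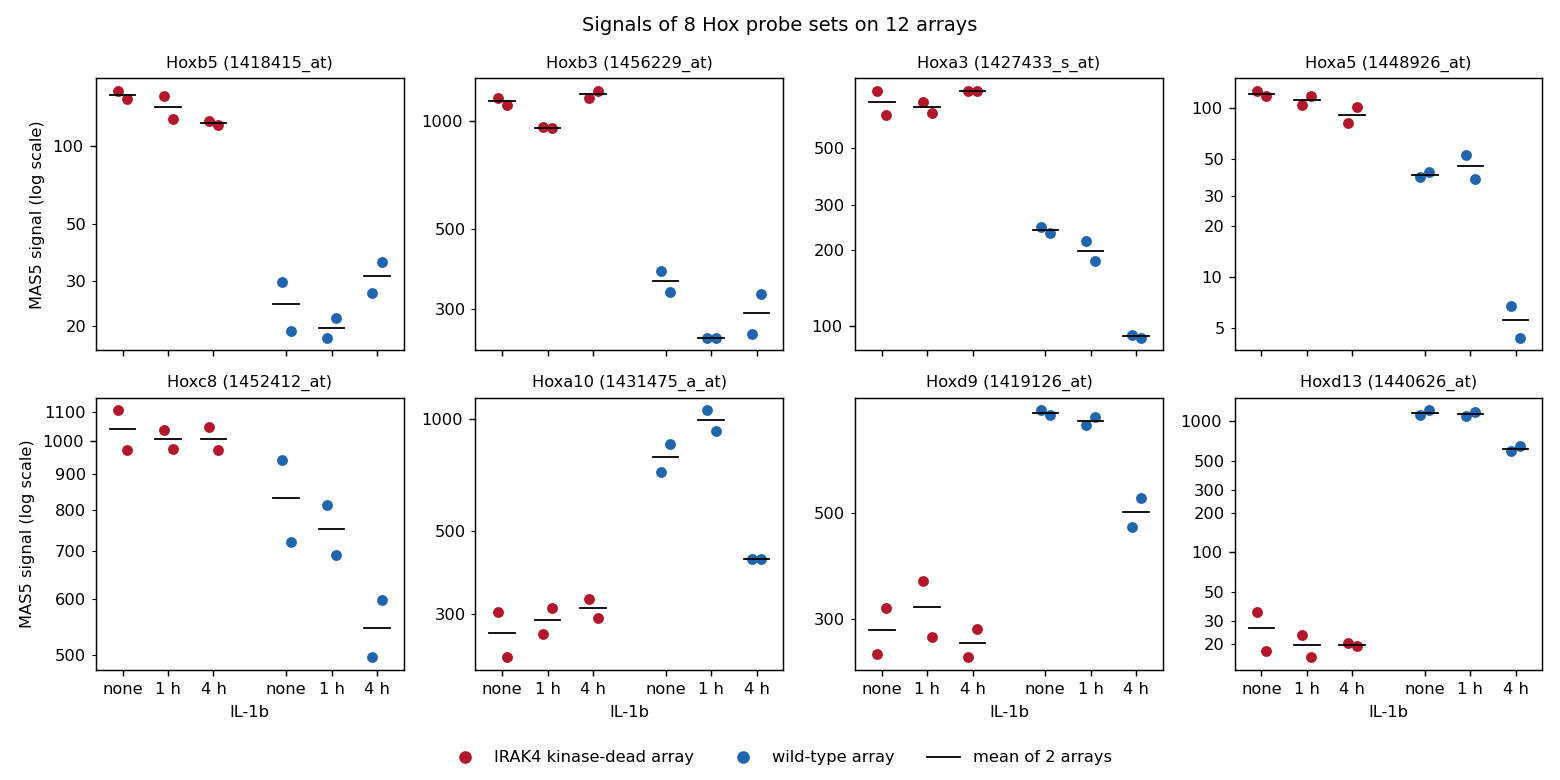
MAS5 signal on a log axis for 8 Hox probe sets on each of the 12 arrays, with kinase-dead arrays in red at the left of each panel, wild-type arrays in blue at the right, and a line at each mean of 2 arrays. Axis ranges differ between panels. Kinase-dead arrays lie above wild-type arrays for Hoxb5, Hoxb3, Hoxa3, Hoxa5 and Hoxc8 and below them for Hoxa10, Hoxd9 and Hoxd13.

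The genotypes were also compared within each condition. Without stimulation 10 Hox probe sets were higher and 7 lower in kinase-dead cells (5.48% and 5.33% of all probe sets). At 1 h of IL-1b 13 were higher and 6 lower (5.62% and 4.87%), and at 4 h 19 were higher and 4 lower (9.76% and 6.94%). Over the 30 probe sets seen in both genotypes these were 10 and 6, 12 and 5, and 19 and 3. The sign was the same in the 3 conditions for 33 of the 38, against 46.8% of all probe sets. On 14 all 6 kinase-dead arrays were above all 6 wild-type arrays (4.9% of all probe sets), and on 4 they were below (3.41%). The 14 include Hoxb2 and the 4 include Hoxd13, each of which passed the filter only through the genotype in which it was higher. The 33 were likewise counted over all 38 probe sets. The median difference at 4 h was 0.98 for Hox probe sets and 0.06 for all.

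The IL-1b response at 4 h was the next comparison. In wild-type cells 15 of the 38 Hox probe sets (12 genes) fell and 0 rose, against 4.06% of all probe sets called lower and 3.45% called higher. An unadjusted p under 0.05 was found for 20 of the 38, against 21.6% of all probe sets. The signs were negative for 31 of the 38, against 59.5% of all, and the median change was -0.49, against -0.08 over all probe sets. Genes of all 4 clusters were among them: 6 of 11 Hoxa probe sets, 1 of 8 Hoxb, 3 of 11 Hoxc and 5 of 8 Hoxd. By position they were 2 of 8 for paralogs 1 to 3, 6 of 18 for paralogs 4 to 8 and 7 of 12 for paralogs 9 to 13. The count was 8 without WT IL-1b 4 h replicate 1, 7 with a variance model that has no trend on signal and 9 with only the groups compared in the fit. No Hox probe set was called higher in any of these settings.

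The largest fall was that of Hoxa5. Its probe set 1448926_at was at 6.8 and 4.4 in wild-type cells at 4 h and at 39 and 41.6 without stimulation, a change of -1.83 ± 0.23 (SE, n = 2 per group; limma adjusted p = 4.72e-05). Those 4 h signals lie below the filter threshold and the pseudocount of 8, so the size of this change depends on the pseudocount. The other Hoxa5 probe set, 1443803_x_at, read 44.5 and 74.6 at 4 h and 134.7 and 136.7 without stimulation (-1.13 ± 0.18). Both 4 h arrays were below both control arrays on each probe set. Hoxa3 fell by 1.31 on 1427433_s_at (SE 0.13) and by 1.24 on 1452421_at (SE 0.21), whose arrays read 114.2 and 85.6 at 4 h and 190.7 and 312.6 without stimulation. Hoxa10, with the arrays given above, changed by -0.88 ± 0.14.

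Hoxa9, a gene of blood progenitors that is overexpressed in myeloid leukaemia, was already low at 1 h. Hoxa9 1455626_at read 121.3 and 123.4 at 4 h against 375.5 and 330.1 without stimulation in wild-type cells, a change of -1.47 ± 0.19 (limma adjusted p = 7.52e-05). At 1 h it read 163.5 and 94.4, a change of -1.44 ± 0.19 against the same control arrays. In kinase-dead cells it read 96.7 and 92.6 at 1 h and 218.5 and 222.5 without stimulation, a change of -1.15 ± 0.19 (limma adjusted p = 0.00386), and 168.1 and 148.5 at 4 h (-0.46 ± 0.19, adjusted p = 0.358). Stimulated arrays were below both controls at both times in both genotypes. The controls were kept for 4 h, so at 1 h IL-1b cannot be told apart from the shorter time in culture. Hoxa9 was the 1 Hox probe set called in kinase-dead cells against their control, and its 1 h responses differed between genotypes by 0.29 ± 0.27, which did not pass (limma adjusted p = 0.836).

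In the Hoxd cluster the falls took in neighbours from Hoxd8 to Hoxd10 and Hoxd13. Hoxd13 read 590.3 and 651.7 in wild-type cells at 4 h and 1113 and 1215.6 without stimulation (-0.90 ± 0.21, limma adjusted p = 0.011). Hoxd9 changed by -0.69 ± 0.14 and Hoxd10 by -0.49 ± 0.13. Hoxd8 1431099_at read 194.7 and 187 at 4 h and 339.6 and 287.1 without stimulation (-0.69 ± 0.14), and 1433638_s_at read 710.9 and 699.4 and 1034.6 and 974.1 (-0.50 ± 0.10). For each of these the 4 h and control arrays did not overlap. Hoxd10 kept its call in 8 of the 12 fits that leave out 1 array, Hoxd13 in 10, Hoxd9 in 11 and both Hoxd8 probe sets in 12.

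The remaining calls in wild-type cells at 4 h were those of Hoxc8, Hoxc4, Hoxb9 and Hoxc9. Hoxc8 read 496.1 and 596.6 at 4 h and 941.6 and 720 without stimulation (-0.59 ± 0.13), and Hoxc4 474.4 and 624.7 and 764.1 and 845.6 (-0.56 ± 0.12). Hoxb9, the gene of the Hoxb cluster that was called, read 201.8 and 208 against 276.3 and 305.8 (-0.49 ± 0.13). In all 3 the stimulated arrays were below the controls. Hoxc9 read 35.5 and 29.7 against 75.8 and 67.3 (-0.97 ± 0.29, limma adjusted p = 0.0494) and kept the call in 2 of the 12 fits that leave out 1 array. The 23 Hox probe sets without a call had changes of -1.36 (Hoxa11, SE 0.56) to 0.29 (Hoxd12, SE 0.59). The Spearman correlation of the 4 h change with paralog number was -0.57 in kinase-dead cells, where no probe set was called, and -0.3 in wild-type cells (28 genes, 1 probe set each).

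In kinase-dead cells at 4 h, limma called 0 of the 38 Hox probe sets higher and 0 lower, where 0.313% and 0.0922% of all probe sets were called. Hoxa11, Hoxd11 and Hoxd13 lay near or below the filter threshold in kinase-dead cells, so a fall there could hardly be seen. At an unadjusted p under 0.05 there were 5 of the 38, against 11.6% of all probe sets: Hoxa7 (0.76 ± 0.28), Hoxc5 1450832_at (0.68 ± 0.30), Hoxd8 1433638_s_at (0.26 ± 0.10), Hoxa9 (-0.46 ± 0.19) and Hoxb3 1427605_at (-0.50 ± 0.18). No Hox probe set was called in this comparison in any of the 12 fits that leave out 1 array. The median change was -0.03, against 0.01 over all probe sets. The actin ratio averaged 2.49 ± 0.0899 in kinase-dead arrays at 4 h, against 2.85 ± 0.0178 in unstimulated ones. The same arrays did respond to IL-1b: of 15 probe sets for 8 known target genes, 12 rose in kinase-dead cells and 14 in wild-type cells at 4 h. Cxcl2, a neutrophil chemokine, rose by 4.02 in kinase-dead and by 8.65 in wild-type cells on the log2 scale.

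**Figure D3:**
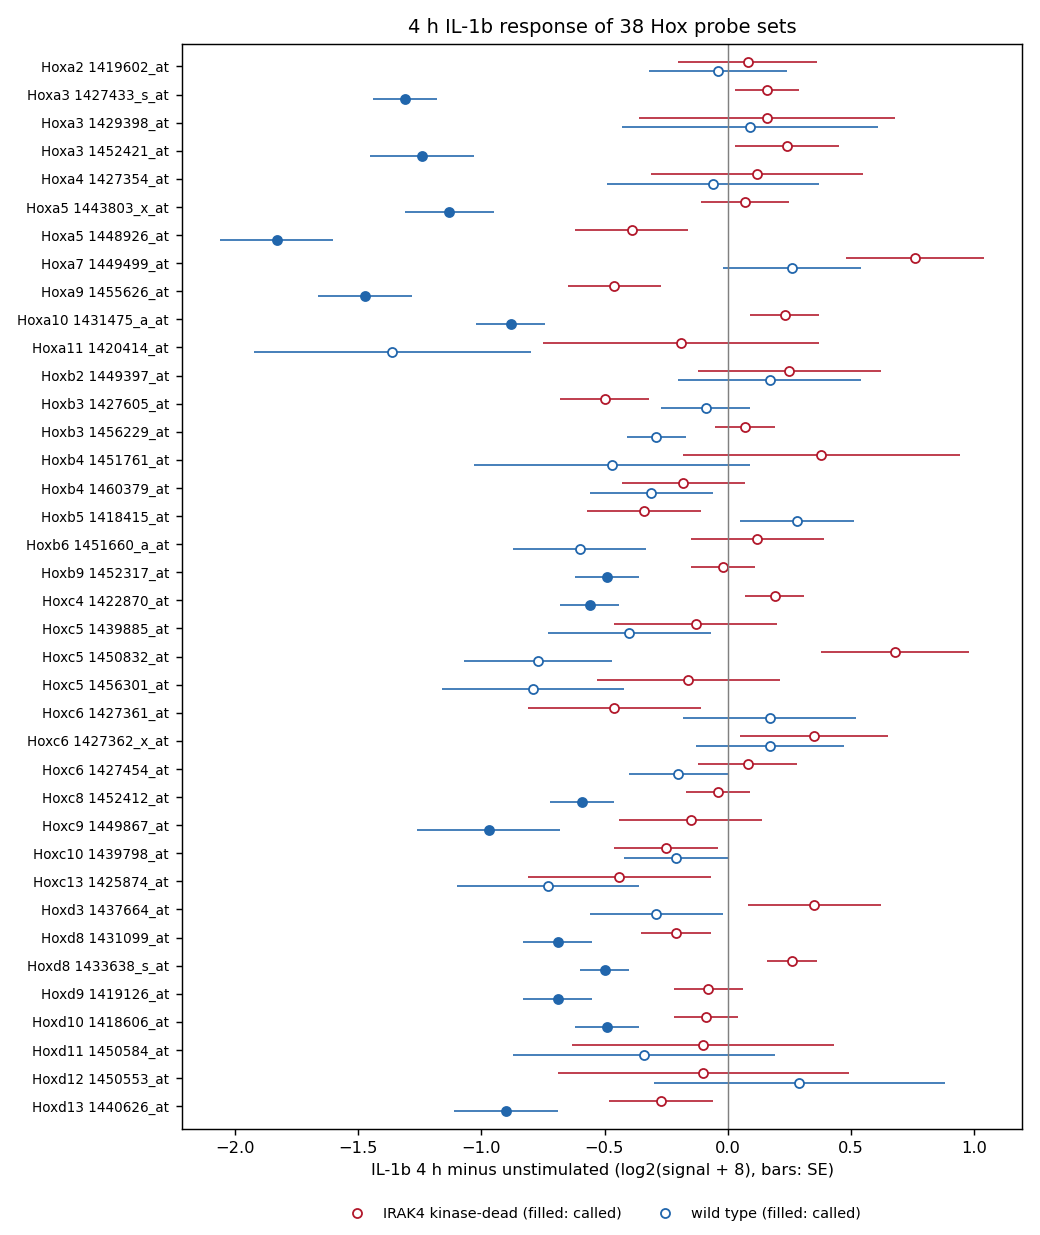
Change at 4 h of IL-1b against unstimulated cells on the log2(signal + 8) scale (x axis) for the 38 tested Hox probe sets (rows), in kinase-dead cells (red, upper) and wild-type cells (blue, lower), with standard errors as bars and called changes as filled points. The 15 filled points are all wild-type and negative, and no kinase-dead point is filled. Hoxa11, Hoxd11 and Hoxd13 lay near or below the filter threshold in kinase-dead cells.

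Whether the 4 h response differs between genotypes was tested as the kinase-dead change minus the wild-type change. It was positive past the threshold for 7 Hox probe sets of 5 genes and negative for 0, where 0.741% and 0.984% of all probe sets were called. An unadjusted p under 0.05 was found for 15, against 14.3% of all probe sets, and the median was 0.49 for Hox and 0.09 for all probe sets. Hoxa3 had 1.47 ± 0.19 (1427433_s_at, limma adjusted p = 0.000268) and 1.48 ± 0.30 (1452421_at, 0.0135), and Hoxa10 had 1.11 ± 0.20 (0.00614). Hoxa5 had 1.44 ± 0.33 (1448926_at, 0.0308) and 1.19 ± 0.26 (1443803_x_at, 0.021), Hoxd8 1433638_s_at 0.76 ± 0.14 (0.00757) and Hoxc4 0.75 ± 0.17 (0.0346). Each of the 7 was lower at 4 h in wild-type cells. With a pseudocount of 32 the call for Hoxa5 1448926_at was lost.

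In kinase-dead cells the 4 h values of those 7 probe sets lay between -0.39 ± 0.23 (Hoxa5 1448926_at) and 0.26 ± 0.10 (Hoxd8), none of them past the threshold. The call for Hoxa3 1427433_s_at and for Hoxa10 was kept in all 12 fits that leave out 1 array, that for Hoxd8 in 11, Hoxa3 1452421_at in 9, Hoxa5 1443803_x_at in 7, Hoxc4 in 6 and Hoxa5 1448926_at in 4. Over all members the count was 2 without IRAK4 KD unstimulated replicate 2, 3 without IRAK4 KD IL-1b 4 h replicate 2, 4 without replicate 1 of either group, and 1 with a variance model that has no trend. The remaining 31 probe sets ranged from -0.63 to 1.45, and Hoxa9 had 1.01 ± 0.27 (adjusted p = 0.0812 by limma).

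At 1 h fewer Hox probe sets were called, against the same unstimulated arrays that served at 4 h. Those arrays were kept for 4 h, so IL-1b and time in culture cannot be told apart in the 1 h changes. In wild-type cells 4 Hox probe sets fell and 0 rose, against 3.74% and 2.89% of all probe sets, and 7 had an unadjusted p under 0.05 (20.1% of all). Beside Hoxa9 these were Hoxa3 1452421_at (129.9 and 134.7 at 1 h, 190.7 and 312.6 without stimulation, -0.85 ± 0.21), Hoxb9 (173.1 and 191.1, 276.3 and 305.8, -0.65 ± 0.13) and Hoxb3 1456229_at (249.5 and 250, 383.1 and 334.6, -0.51 ± 0.12). In each of them the 1 h arrays were below the controls. The count was 1 without WT IL-1b 1 h replicate 1, 2 without replicate 2 of that group and 1 with only the groups compared in the fit. In kinase-dead cells 1 fell, Hoxa9, and 0 rose, against 1.18% and 1.17%, with 6 at an unadjusted p under 0.05 (15.3% of all), and this was 0 without the trend in the variance model, 2 without either WT unstimulated array and 2 with only the groups compared. The difference between genotypes in the 1 h response was called for 0 Hox probe sets in either direction, where 0.0664% (positive) and 0.299% (negative) of all were called, and 2 had an unadjusted p under 0.05, against 8.11% of all (Hoxa3 1452421_at and Hoxd8 1433638_s_at). Without WT unstimulated replicate 1 the count called was 1.

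Between 1 h and 4 h of stimulation, 12 Hox probe sets (10 genes) were lower at 4 h in wild-type cells and 0 higher, against 7.58% and 7.09% of all. Hoxa5 1448926_at changed by -1.97 ± 0.23, Hoxa10 by -1.21 ± 0.14 and Hoxa3 1427433_s_at by -1.05 ± 0.13. Hoxc5 1450832_at read 19.9 and 11.5 at 4 h and 38.2 and 40.8 at 1 h (-1.03 ± 0.30). Hoxa9 differed by -0.02 ± 0.19 and Hoxb9 by 0.16 ± 0.13 between these times, neither past the threshold. The count of 12 was 6 without WT IL-1b 1 h replicate 2, 7 without replicate 1 of that group or of WT IL-1b 4 h, and 6 without the trend. In kinase-dead cells 1 Hox probe set was higher at 4 h than at 1 h and 0 lower, against 1.52% and 1.15%. It was Hoxc4, with 1522.6 and 1473 at 4 h and 1056.9 and 935.3 at 1 h (0.59 ± 0.12, limma adjusted p = 0.0155), and its call was lost without any 1 of those 4 arrays. The count was 2 without either WT unstimulated or either WT IL-1b 1 h array, 3 with only the groups compared and 0 without the trend.

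**Figure D4:**
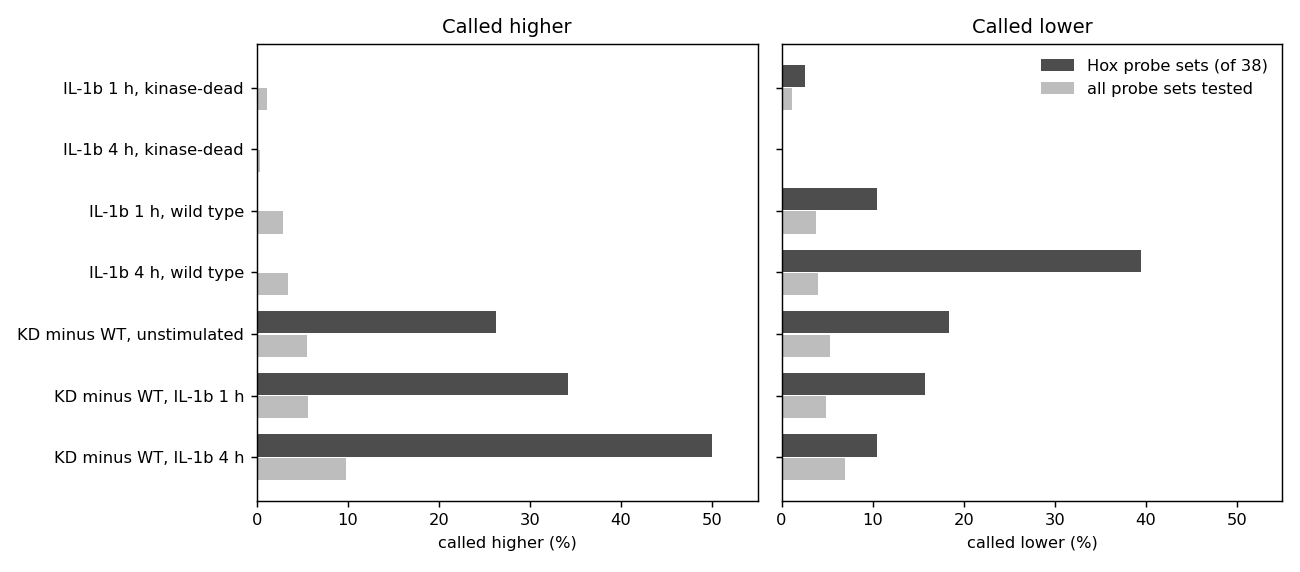
Share of probe sets called higher (left) and lower (right), in percent, among the 38 tested Hox probe sets (dark bars) and all 27121 tested (light bars), for 7 comparisons. The Hox share called lower at 4 h of IL-1b against unstimulated wild-type cells is 39.5%. The Hox share called higher in kinase-dead than in wild-type cells, both at 4 h of IL-1b, is 50%.

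Genes that work with the Hox proteins were counted by list. The TALE homeodomain cofactors (Pbx, Meis and Pknox genes) bind DNA together with Hox proteins. Of their 19 tested probe sets for 8 genes, 11 (4 genes) were higher and 1 lower in kinase-dead cells over all conditions. Among all probe sets 13.3% were higher and 9.67% lower. Meis1 differed by 1.81 and Meis2 by 1.49. In wild-type cells 5 of the 19 (4 genes) fell at 4 h and 0 rose (4.06% and 3.45% of all). Those that fell included Meis2 (-1.23 ± 0.15) and Meis1 (-1.10 ± 0.24). In kinase-dead cells 0 of the 19 were called at 4 h, where 0.313% of all were called higher and 0.0922% lower. The 4 h response difference was positive for 2, both of Meis2 (1.00 ± 0.22 and 0.76 ± 0.18), and negative for 0 (0.741% and 0.984% of all).

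Polycomb proteins keep silent Hox genes off and trithorax proteins keep active ones on. Of 47 Polycomb probe sets 9 were higher and 0 lower in kinase-dead cells over all conditions, where 13.3% and 9.67% of all probe sets were. At 4 h in wild-type cells 1 rose and 2 fell, close to the 3.45% and 4.06% of all. Of 29 probe sets for trithorax group and H3K27 demethylase genes 4 were higher and 2 lower over all conditions, near the 13.3% and 9.67% of all probe sets, and in wild-type cells at 4 h 3 rose and 1 fell (3.45% and 4.06% of all). Of 16 probe sets for upstream regulators of Hox genes, 3 were higher and 3 lower in kinase-dead cells over all conditions (13.3% and 9.67% of all). At 4 h in wild-type cells 3 fell and 0 rose (4.06% and 3.45% of all). In kinase-dead cells 0 of the 16 were called at 4 h, where 0.313% of all were called higher and 0.0922% lower. The 3 that fell were of Zfp503 (-1.24) and the retinoid X receptor genes Rxra (-0.70 ± 0.12) and Rxrb (-0.72 ± 0.21).

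Genes beside or inside the clusters included the antisense transcript Hoxb5os, which read 152.6 to 273 in kinase-dead and 11.8 to 25.4 in wild-type arrays and did not overlap (3.11 ± 0.11, limma adjusted p = 7.59e-13). Hoxa11os read 4 to 25.6 in kinase-dead and 49.4 to 92.4 in wild-type arrays (-1.84 ± 0.24, limma adjusted p = 1.28e-05). Hoxb5os passed the filter only through kinase-dead cells and Hoxa11os only through wild-type cells, the genotype in which each was higher. Over this list of 28 probe sets 5 were higher and 2 lower in kinase-dead cells, against 13.3% and 9.67% of all probe sets, so the list as a whole was near that background. Among 29 probe sets of other position and limb genes, 1 was higher and 14 lower over all conditions, against the same shares, with Shox2 at -2.19, Meox2 at -2.06 and Tbx5 at -1.83.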

How the data were processed

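RNA of 12 samples of mouse embryonic fibroblasts was purified with RNeasy, amplified with NuGEN Ovation and measured on expression arrays, per the labels' protocols. The deposited values are linear-scale MAS5 signal intensities of each probe set, per the submitters' processing notes. Their mean after trimming 2% at each end was equal on all 12 arrays. Probe sets were named from the platform annotation: 34958 had 1 gene symbol, 932 several and 9211 none. The title of WT unstimulated replicate 1 does not state the genotype, and it was placed by the series' design of 6 arrays per genotype.

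Signals were tested as log2(signal + 8) with no further normalization, over the 27121 probe sets with a signal of 25.5 (the median over the whole table) or more on 2 or more arrays. limma 3.58.1 in R 4.3.3 fitted 6 group means (6 residual degrees of freedom) with a trended empirical Bayes variance. The difference over all conditions came from an additive model of genotype and condition. P-values were adjusted by Benjamini-Hochberg within each of 12 comparisons and called at 0.05. The code was tested on simulated data. Array number and signal over background limit the precision. Alternatives were other pseudocounts (1 and 32), filters, normalizations, variance models, samples in the fit, 1 probe set per gene, a replicate block and leaving out each array.

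The groups share replicate numbers. Deviations of same-numbered arrays correlated at -0.03 to 0.07 over 15 pairs of groups, so the numbers were not taken to pair the arrays. The Hox genes and the lists were chosen with earlier results of these data known. Values in every sample were given for members called in a response difference or in kinase-dead cells, for up to 12 called members per other comparison with the largest change and groups that do not overlap, and for the brightest tested probe set of each paralog number. As exceptions, Hoxb2 was given as a range, and Hoxc5 1450832_at and Hoxc9 for part of their arrays. Of the lists, up to 3 of the largest called genes were named. Figures were drawn with matplotlib 3.10.9.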

Additional observations from a re-analysis of the deposited data

Results flagged for a closer look

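For 7 Hox probe sets the change at 4 h of IL-1b differed between kinase-dead and wild-type cells by the interaction term of the limma fit. The kinase-dead minus wild-type differences in log2 change were 1.47 and 1.48 for the Hoxa3 probe sets 1427433_s_at and 1452421_at, 1.19 and 1.44 for the Hoxa5 probe sets 1443803_x_at and 1448926_at, 1.11 for Hoxa10, 0.76 for Hoxd8 1433638_s_at and 0.75 for Hoxc4. All 7 were lower at 4 h in wild-type cells, while none passed the threshold in kinase-dead cells. Without the trend in the variance model, Hoxa3 1427433_s_at alone kept its call.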

How the results depend on the processing

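Among the 38 Hox probe sets, 44 calls were followed for a change of sign, and none of these reversed under any alternative. They were the calls at 4 h and 1 h in wild-type cells and at 1 h in kinase-dead cells. Those for the 4 h response difference and for genotype without stimulation were also followed. Calls in the other comparisons were not followed for sign. Without the trend in the variance model the count called was 7 at 4 h in wild-type cells (15 in the fit as reported), 0 at 1 h in kinase-dead cells (1), 1 for the 4 h response difference (7), 6 between 1 h and 4 h in wild-type cells (12) and 0 in kinase-dead cells (1). With only the groups compared in the fit it was 9 at 4 h and 1 at 1 h in wild-type cells (15 and 4), 2 at 1 h in kinase-dead cells and 3 between 1 h and 4 h in kinase-dead cells. With the filter at 51 signal units it was 2 at 1 h in kinase-dead cells. The cause was not tested. Leaving out each array in turn gave 8 to 15 at 4 h and 1 to 4 at 1 h in wild-type cells, 0 to 0 at 4 h and 1 to 2 at 1 h in kinase-dead cells, 2 to 8 and 0 to 1 for the 4 h and 1 h response differences, and 6 to 13 and 0 to 2 between 1 h and 4 h in wild-type and kinase-dead cells. For genotype it gave 14 to 17 without stimulation, 14 to 21 at 1 h, 16 to 24 at 4 h and 27 to 31 over all conditions. With the replicate block the counts were 14 at 4 h in wild-type cells, 7 for the 4 h response difference and 31 for genotype over all conditions, and the block moved no count by over 1.5 times. Of 44 named calls 20 were lost without the trend, 15 with only the groups compared, 5 without a filter, 4 with median centring, 2 each with quantile normalization and a pseudocount of 32, and 1 (Hoxc9) with the block. The fit of only the groups compared has no value for genotype over all conditions. Dim probe sets near 25.5 signal units carry the least precision.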

Other observations

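A probe set annotated to both Hoxb8 and Hoxb7 (1452493_s_at) was no member, since it has 2 symbols. It read 55.9 and 74.7, 52.6 and 60.4, and 45 and 44.1 in kinase-dead cells without stimulation, at 1 h and at 4 h, against 28.9 and 20.1, 25.2 and 12.1, and 12 and 19.3 in wild-type cells. All kinase-dead arrays were above all wild-type arrays, with a difference over all conditions of 1.22 ± 0.18 (SE, 6 arrays per genotype; limma adjusted p = 4.8e-05). This probe set passed the filter only through kinase-dead cells, the genotype in which it was higher. The antisense transcript Hoxd3os1 differed by 0.26 ± 0.23 and did not pass the test (limma adjusted p = 0.475).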
